A study of Homo sapiens with 4 samples.

Results

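Keratins are the intermediate filament proteins of epithelia, and keratin-associated proteins (KRTAPs) are the matrix proteins that embed hair keratin filaments. All genes whose symbol starts with KRT followed by a digit, or with KRTAP, were taken from the promoter table, which gave 148 of 20242 promoters. They comprised 4 simple epithelial keratins (KRT7, KRT8, KRT18 and KRT19), 51 other keratins and 93 KRTAP genes.

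The study asked how removal of trimethylation at lysine 27 of histone H3 (H3K27me3) changes human embryonic stem cells (hESCs). The cells were JMJD3c-hESCs, a stable derivative of the SEES-3 hESC line that carries a piggyBac transgene in which the tetracycline system drives HA-tagged JMJD3c, the catalytic portion of the H3K27 demethylase JMJD3. Both groups carried the transgene and the transactivator and were grown without feeder cells. The −Dox group was untreated, and the +Dox group received doxycycline (Dox) at 1 µg/ml and was collected on day 3. Chromatin immunoprecipitation sequencing (ChIP-seq) was performed for H3K27me3, which Polycomb complexes deposit at silent promoters, and for trimethylated lysine 4 (H3K4me3), which is found at active and poised promoters. The labels gave 1 library for each mark and condition. No difference reported here therefore had a replicate check, and no p-value is given. The cells came from a transgenic line selected as stable clones, so values may hold features of that line. A bulk library cannot tell fewer cells with a mark from less of the mark in each cell.

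Values are coverage units, scaled by the authors to the reads of the library and collected from 3 kb before to 3 kb after each transcription start, so all windows had the same length. A promoter was called marked above 20, the threshold of the study's methods, and bivalent when both marks exceeded it. One read was worth about 0.967 to 1.29 units, and 20 units stood for about 15.5 to 20.7 reads. The median of all promoters was 6.09 units in −Dox and 5.97 in +Dox for H3K27me3, and 41.3 and 38.8 for H3K4me3. Of 12 pluripotency promoters, 10 exceeded 20 for H3K4me3 in both conditions, beside 63.7% of all promoters in −Dox and 62.7% in +Dox. Among the 10 were DNMT3B, SALL4 and LIN28A. The exceptions were DPPA2 and POU5F1, and the POU5F1 window lay 10049 bases from the canonical start of that gene.

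Keratin filaments are built from pairs of a type I and a type II chain. KRT8 (type II) and KRT18 (type I) form the first pair of the embryo and of simple, single-layered epithelia, with KRT7 and KRT19 as further simple epithelial chains. Stratified epithelia use other pairs, such as KRT5 with KRT14 in basal cells and KRT1 with KRT10 above them, and the hair follicle uses its own keratins together with KRTAPs. Type II genes and KRT18 lie in a cluster on chromosome 12, the remaining type I genes in a cluster on chromosome 17, and KRTAP genes in several clusters.

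The promoters below, for which RefSeq gave the same start as the measured window, are shown as examples of epithelial keratin and KRTAP promoters that carried no mark. No hair or inner root sheath keratin is among them. KRT5 and KRT10 belong to stratified epithelia, KRT20 to intestinal epithelium, and KRTAP1-1 and KRTAP10-2 to hair. Each line gives the 250 bases before the start, 5′ to 3′ on the strand of the gene, with CG dinucleotides and TATAAA in capitals (RefSeq, GRCh38.p14). The positions are chr12:52520395-52520644 for KRT5, chr17:40822615-40822864 for KRT10, chr17:40885243-40885492 for KRT20, chr17:41041451-41041700 for KRTAP1-1 and chr21:44551506-44551755 for KRTAP10-2, all on the minus strand.
KRT5: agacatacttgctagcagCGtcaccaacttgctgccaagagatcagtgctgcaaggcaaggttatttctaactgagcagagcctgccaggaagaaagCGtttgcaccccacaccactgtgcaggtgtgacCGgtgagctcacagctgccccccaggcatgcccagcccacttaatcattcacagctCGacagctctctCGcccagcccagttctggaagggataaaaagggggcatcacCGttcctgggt
KRT10: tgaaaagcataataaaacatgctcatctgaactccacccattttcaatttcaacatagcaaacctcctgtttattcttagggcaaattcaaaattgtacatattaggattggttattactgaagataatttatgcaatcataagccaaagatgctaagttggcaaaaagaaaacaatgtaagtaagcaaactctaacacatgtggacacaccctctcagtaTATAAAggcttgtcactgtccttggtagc
KRT20: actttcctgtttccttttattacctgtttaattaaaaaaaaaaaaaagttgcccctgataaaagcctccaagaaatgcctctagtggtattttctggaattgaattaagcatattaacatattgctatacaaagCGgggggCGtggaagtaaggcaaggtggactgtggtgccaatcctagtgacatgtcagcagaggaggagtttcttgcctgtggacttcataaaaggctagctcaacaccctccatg
KRTAP1-1: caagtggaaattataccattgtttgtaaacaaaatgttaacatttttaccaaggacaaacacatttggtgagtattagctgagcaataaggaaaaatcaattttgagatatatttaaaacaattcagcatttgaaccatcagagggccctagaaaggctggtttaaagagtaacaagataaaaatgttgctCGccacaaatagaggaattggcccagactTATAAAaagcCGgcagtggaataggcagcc
KRTAP10-2: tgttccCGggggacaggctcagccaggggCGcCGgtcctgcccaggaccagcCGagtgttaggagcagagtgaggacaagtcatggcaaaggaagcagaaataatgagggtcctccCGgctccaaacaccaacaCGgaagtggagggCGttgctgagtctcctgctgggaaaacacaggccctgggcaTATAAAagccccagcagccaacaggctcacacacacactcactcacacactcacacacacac
The stretch held 6 CG dinucleotides in KRT5, 0 in KRT10, 2 in KRT20, 2 in KRTAP1-1 and 7 in KRTAP10-2. TATAAA began 29 bases before the start of KRT10, 30 before that of KRTAP1-1 and 62 before that of KRTAP10-2.

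H3K4me3 separated the simple keratins from the rest of the family. In −Dox cells 4 of 148 promoters exceeded 20, where 63.7% of all promoters did, and all 4 were simple keratins. KRT7 was near the threshold, at 22.8 units. The KRT8 window shared 83.8% of its bases with that of KRT18, and the canonical KRT8 promoter was not analysed. In +Dox cells 3 of 148 exceeded 20, beside 62.7% of all promoters, and these were KRT18, KRT8 and KRT19. None of the 51 other keratins and none of the 93 KRTAP promoters exceeded 20 in either condition.

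H3K27me3 exceeded 20 at 0 of the 148 promoters in −Dox cells, beside 11.0% of all promoters, and at 0 of 148 in +Dox cells, beside 6.73%. No keratin or KRTAP promoter was therefore bivalent or marked by H3K27me3 alone. In −Dox cells 4 were marked by H3K4me3 only and 144 carried neither mark. In +Dox cells these numbers were 3 and 145.

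**Figure D1:**
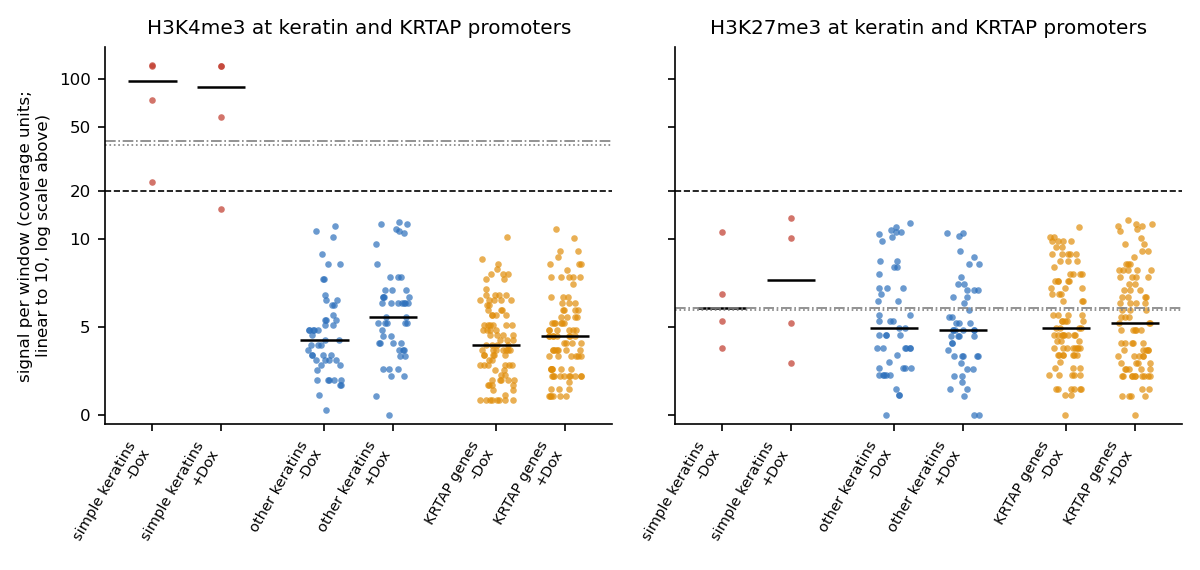
H3K4me3 (left) and H3K27me3 (right) signal per promoter window in coverage units, linear up to 10 and logarithmic above, for the 4 simple keratins, 51 other keratins and 93 KRTAP genes in −Dox and +Dox cells. Each point is 1 promoter, black bars are group medians, the dashed line is the threshold of 20, and grey dash-dotted and dotted lines are the medians of all promoters in −Dox and +Dox. Only simple keratins lie above the threshold, and only for H3K4me3.

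Among the simple keratins, KRT18 (ENSG00000111057, GRCh37 chr12:53339655-53345655) had the highest H3K4me3 value of the family, with 122.5 units in −Dox and 122.3 in +Dox. This placed it above 96.1% of all promoters in −Dox cells. The +Dox/−Dox ratio was 0.998, with a 95% interval of 0.759 to 1.31. This interval, like every interval on a ratio given here, is an exact Clopper-Pearson interval on approximate reads, covers counting error only and compares 2 libraries. H3K27me3 at KRT18 was 5.33 units in −Dox and 2.98 in +Dox, both below the median of all promoters.

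KRT8 (ENSG00000170421, chr12:53340626-53346626) had nearly the same H3K4me3 values, 121.7 in −Dox and 120.8 in +Dox, with a ratio of 0.993 (0.748 to 1.30). Its H3K27me3 was 3.803 and 5.22 units. KRT8 and KRT18 are not independent here. The deposited KRT8 start lay 44766 bases from the canonical KRT8 start, on the opposite strand within an intron of KRT18 and 971 bases downstream of the KRT18 start. The KRT8 and KRT18 windows thus shared 5030 of 6001 bases (83.8%), and the canonical KRT8 promoter was not analysed here. The simple keratins accordingly represent 3 separate regions.

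KRT19 (ENSG00000171345, chr17:39681560-39687560), the type I chain of ductal and other simple epithelia, had 74.1 units of H3K4me3 in −Dox and 58.2 in +Dox. It stood above 76.3% of all promoters in −Dox cells. The ratio of 0.785 had an interval of 0.530 to 1.14, so a difference between the libraries was not detectable at this depth. H3K27me3 was 6.85 units in −Dox and 10.1 in +Dox, with an interval on the ratio from 0.452 to 6.09.

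KRT7 (ENSG00000135480, chr12:52624027-52630027), a type II chain of ducts and other simple epithelia, was the only member whose class differed between conditions. Its H3K4me3 was 22.8 units in −Dox and 15.3 in +Dox, on either side of the threshold. The ratio was 0.671 with an interval of 0.298 to 1.36, which included 1. Of the 342 H3K4me3-only promoters between 20 and 25 units in −Dox cells, 120 (35.1%, Wilson interval 30.2 to 40.3%) were at or below 20 in +Dox cells. Their median ratio was 1.01, and 54 of them (15.8%) had a ratio at or below that of KRT7. KRT7 also had the highest H3K27me3 of the simple keratins, 11.03 units in −Dox and 13.4 in +Dox, above 78.7% and 88.3% of all promoters but below the threshold.

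The highest values outside the simple keratins did not reach the threshold in any library. KRT86, a type II hair keratin, had the highest H3K4me3 of the remaining 144 promoters in both conditions, with 11.97 and 12.68 units. For H3K27me3 the highest were KRT39, a type I hair keratin, with 12.6 units in −Dox, and KRTAP10-10 with 13.1 in +Dox. KRT7, the lowest simple keratin for H3K4me3, lay above KRT86 in both conditions.

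The 10 other keratins with the highest mean H3K4me3 over both conditions were KRT86, KRT32, KRT222, KRT37, KRT15, KRT10, KRT72, KRT33B, KRT78 and KRT35. They included type I and type II, epithelial and hair keratins, and ranged from 1.995 to 11.97 units in −Dox and from 6.34 to 12.7 in +Dox. The 10 with the highest mean H3K27me3 were KRT25, KRT33B, KRT38, KRT39, KRT26, KRT40, KRT78, KRT84, KRT10 and KRT6C. They ranged from 4.94 to 12.6 units in −Dox and from 4.10 to 10.8 in +Dox. KRT10, KRT33B and KRT78 stood in both sets. Of the 10 highest for H3K27me3, 7 were type I chains. Type I chains are also the larger part of the 51 other keratins, with subgroups of 12, 4 and 11 genes.

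The keratin pairs of stratified epithelia had low values for both marks. H3K4me3 at KRT5 was 6.84 units in −Dox and 6.71 in +Dox, and H3K27me3 was 7.99 and 6.71. KRT14, its basal partner, had 3.99 and 4.10 units of H3K4me3 and 4.56 and 3.36 of H3K27me3. The suprabasal KRT1 had 5.41 and 3.73 units of H3K4me3 and 4.56 and 4.47 of H3K27me3. All of these values correspond to fewer than 10 reads. KRT10, the partner of KRT1, had 8.55 and 6.71 units of H3K4me3 and 11.03 and 4.10 of H3K27me3, and its window overlapped that of TMEM99, whose H3K4me3 was 46.2 units in −Dox.

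Keratins with other sites of use were equally low. KRT17, which rises in injured and hyperproliferative epidermis, had 2.85 and 7.08 units of H3K4me3. KRT20, a keratin of intestinal epithelium, had 3.71 and 7.08 units. KRT23 stood at 6.55 and 6.34 units and KRT80 at 3.14 and 5.22. Their H3K27me3 values ranged from 3.36 to 8.95 units over both conditions.

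As a group, the 51 other keratins ranged from 0.285 to 11.97 units of H3K4me3 in −Dox with a median of 4.27, and from 0 to 12.7 with a median of 5.59 in +Dox. Their H3K27me3 ranged up to 12.6 units with a median of 4.94 in −Dox, and up to 10.8 with a median of 4.85 in +Dox. The values of the 93 KRTAP genes overlapped those of these keratins in every library. Their H3K4me3 median was 3.99 units in −Dox, with a highest value of 10.3, and 4.47 in +Dox, with a highest value of 11.6. Their H3K27me3 median was 4.94 units in −Dox and 5.22 in +Dox.

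These medians were near those of other unmarked promoters. The 6892 non-member promoters unmarked in −Dox cells had median H3K4me3 values of 4.56 units in −Dox and 5.22 in +Dox, and median H3K27me3 values of 5.33 and 5.03. Olfactory receptor genes, another large clustered family, used by sensory neurons of the nose, had medians of 3.42 and 4.10 units of H3K4me3 and 5.71 and 6.34 of H3K27me3 over 382 promoters. How much of these low values is background was not tested, since no input library was analysed here.

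The named KRTAP genes with the highest mean H3K4me3 were KRTAP10-2 (8.55 units in −Dox and 11.6 in +Dox), KRTAP1-1 (7.98 and 8.95), KRTAP10-11 (10.3 and 5.97), KRTAP5-6 (6.27 and 9.32) and KRTAP13-2 (7.69 and 7.83). Those with the highest mean H3K27me3 were KRTAP22-2 (11.8 and 10.1), KRTAP6-3 (8.75 and 12.3), KRTAP19-2 (7.23 and 11.9), KRTAP4-2 (10.3 and 8.20) and KRTAP13-4 (9.13 and 8.58). The first group includes high-cysteine KRTAPs, and neither group contains a promoter above 20.

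No interval of a simple keratin excluded 1 in either mark, though those of KRT7 and of H3K27me3 were wide. Their summed H3K4me3 was 341.1 units in −Dox and 316.5 in +Dox, a ratio of 0.928, while the sum over all promoters gave 0.975. The median log2 ratio was −0.18, beside −0.02 over all promoters. Without KRT8 and KRT18, whose windows overlap, the ratio of sums was 0.758. For H3K27me3 the ratio of sums was 1.17 on about 21 and 25 reads, while all promoters together gave 0.850.

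Only 3 members, KRT18, KRT8 and KRT19, had a mean H3K4me3 above 20. None of them had a ratio below 0.5, as 0.74% of the 12840 promoters with such a mean did, and none had a ratio above 2, as 0.156% did. No member had a mean H3K27me3 above 20, so no such ratio was counted for that mark.

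**Figure D2:**
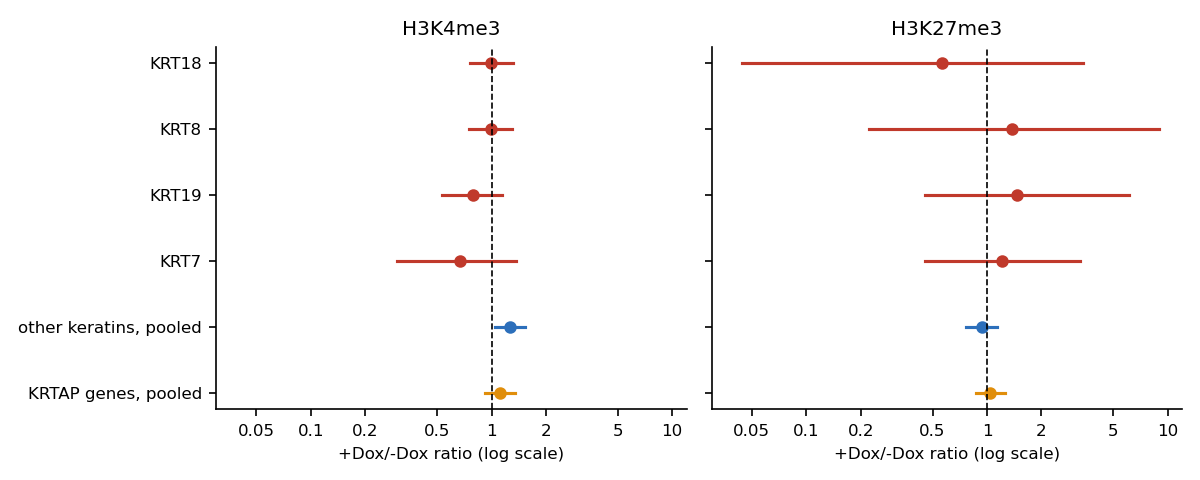
Ratio of +Dox to −Dox signal for H3K4me3 (left) and H3K27me3 (right) on a log scale, for each simple keratin and for the pooled other keratins (49 windows) and KRTAP genes (55 windows) that overlap no other member. Points are ratios and lines are 95% intervals from counting error in 2 libraries. The 4 simple keratins include 1 in both marks, and the pooled other keratins lie above 1 for H3K4me3, at 1.27.

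Pooling promoters gave a narrower interval for the unmarked members. Over the 49 other keratins with a position and no overlap, H3K4me3 was 1.27 times its −Dox value in +Dox cells (1.05 to 1.53, from 233 and 226 reads). Over 55 KRTAP genes the ratio was 1.11 (0.917 to 1.34). The ratio of sums was 1.12 over the unmarked non-members, but these were selected on their −Dox values, a selection that can raise such a ratio. Over the 382 olfactory receptor promoters, chosen by symbol only, it was 1.22. With the median ratio of the promoters at or below 20 in all 4 libraries set to 1, the ratio of sums of all 51 other keratins was 1.16 in place of 1.26. No interval was computed at this scaling.

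The pooled H3K27me3 ratio was 0.934 (0.765 to 1.14) for the other keratins and 1.05 (0.869 to 1.26) for the KRTAP genes, and 0.976 for the unmarked non-members. With both libraries brought to equal totals over all promoters, the ratio of the KRTAP genes was 1.23 (1.02 to 1.48), and that of the other keratins 1.10 (0.901 to 1.34). That scaling raises +Dox values by 1.18 times, because the sum over all promoters was lower in +Dox. With the median ratio of low promoters set to 1 instead, the ratio of sums was 1.07 over all 93 KRTAP genes. Over all 51 other keratins it was 0.966, and no interval was computed at this scaling. The side of 1 on which the other keratins fell, and whether the KRTAP interval included 1, thus depended on the scaling.

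Intervals of single promoters rarely excluded 1. For H3K27me3 the interval lay below 1 at 1 of 148 promoters (0.676%), beside 6.65% of all 19795 promoters with reads, and above 1 at 5 of 148 (3.38%), beside 1.66%. For H3K4me3 it lay below 1 at 0 of 148, beside 2.97% of 19792 promoters, and above 1 at 4 of 148 (2.70%), beside 1.76%. Among the 6892 unmarked non-members, with similarly low values, the H3K27me3 interval lay below 1 at 98 and above 1 at 93. For H3K4me3 these numbers were 32 and 116. Among the 382 olfactory receptor promoters they were 8 and 11 for H3K27me3, and 0 and 10 for H3K4me3. The shares among the members rest on few genes. The promoters named next were chosen after their values were seen, and each rests on about 10 or fewer reads in any library.

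For H3K27me3 the promoter with an interval below 1 was KRT28, an inner root sheath keratin, with 10.3 units in −Dox and 1.86 in +Dox. The 4 type I keratins of the inner root sheath, KRT25 to KRT28, ranged from 8.37 to 11.8 units in −Dox and from 1.86 to 10.8 in +Dox. Their sum, which includes the KRT28 values that pointed to them, had a ratio of 0.531 on about 32 and 17 reads. All 4 were higher in −Dox cells, although KRT25, at 11.03 and 10.8 units, barely differed. Over all 20242 promoters, 11024 were higher in −Dox and 8773 in +Dox. The 5 type II keratins of the inner root sheath and companion layer went the other way, with a ratio of sums of 1.94 on about 12 and 24 reads and 4 of 5 higher in +Dox. None of these promoters reached 20.

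The promoters with an H3K27me3 interval above 1 were KRTAP10-1, KRTAP10-5, KRTAP10-8 and KRTAP10-10 on chromosome 21 and KRTAP29-1 on chromosome 17. KRTAP10-1 had 1.14 units in −Dox and 11.9 in +Dox, and KRTAP10-10 had 1.14 and 13.1. KRTAP10-5 was listed at 0 in −Dox and at 7.08 in +Dox. The 12 KRTAP10 genes encode high-cysteine matrix proteins of hair, and 9 of them had higher H3K27me3 in +Dox and 3 lower. Over all promoters, 8773 of 20242 were higher in +Dox. The family was taken up because of the intervals of its members, so its counts and sums reuse the values that pointed to it.

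The KRTAP10 values overlapped between conditions, with a range of 0 to 9.89 units in −Dox and 2.24 to 13.1 in +Dox. Their summed H3K27me3 was 45.6 units in −Dox and 90.6 in +Dox, from about 35 and 72 reads, and their summed H3K4me3 was 66.7 and 73.1. All remained below the threshold.

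For H3K4me3 the intervals above 1 belonged to the type I hair keratins KRT33B, KRT35 and KRT38 and to KRTAP5-7. KRT33B had 2.57 units in −Dox and 12.3 in +Dox, KRT35 had 1.995 and 11.6, KRT38 had 0.285 and 6.34, and KRTAP5-7 had 0.855 and 9.32. Over the 11 type I hair keratins, 9 had higher values in +Dox and 2 lower, and the ratio of sums was 1.81 on about 49 and 67 reads. Over all promoters, 9454 of 20242 were higher in +Dox. The type I hair keratins were taken up because of KRT33B, KRT35 and KRT38, whose values are in this count and sum. The 6 type II hair keratins had a ratio of sums of 1.09.

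Along chromosome 12, 25 keratin promoters lay within 0.758 Mb with no other placed promoter between them. KRT4 and KRT86 and 9.87% of all transcripts had no position and are not part of this count. KRT7, KRT18 and KRT8 exceeded 20 for H3K4me3, and KRT18 and KRT8 stood at the end of the cluster next to EIF4B, a translation initiation factor gene with 89.8 units. Of the 10 promoters flanking this cluster, 5 on each side, 8 exceeded 20 for H3K4me3 and 3 for H3K27me3 in −Dox cells. In +Dox cells 1 flanking promoter exceeded 20 for H3K27me3.

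Along chromosome 17, 61 keratin and KRTAP promoters lay within 0.959 Mb with 1 other promoter, TMEM99, among them. KRT19 was the only one of the 61 above 20 for H3K4me3, and its neighbours KRT15 and KRT9 had 9.12 and 3.42 units in −Dox. Of the 10 flanking promoters, 7 exceeded 20 for H3K4me3, such as SMARCE1 at 94.3 and EIF1 at 85.2 units. The flanking promoters above 20 for H3K27me3 in −Dox cells were GAST with 53.3 units, against 22.7 in +Dox, and HAP1 with 62.0 against 17.2. H3K27me3 was thus measured close to both clusters in these libraries, while 0 promoters within them exceeded 20.

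**Figure D3:**
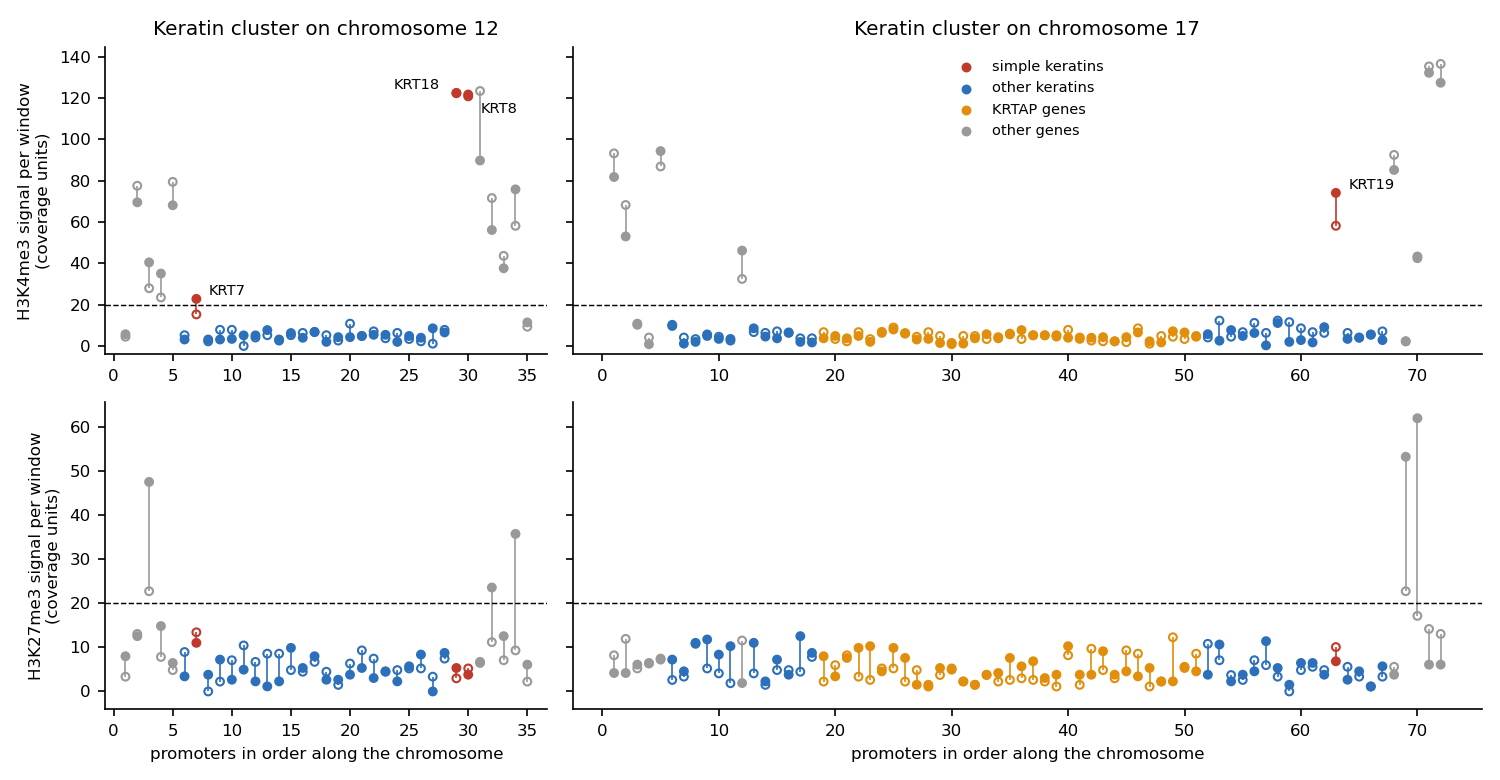
H3K4me3 (top) and H3K27me3 (bottom) signal per window in coverage units for the promoters of the keratin clusters on chromosomes 12 and 17, in chromosomal order with 5 flanking promoters on each side. Filled points are −Dox, open points +Dox, colours mark simple keratins, other keratins, KRTAP genes and other genes, and the dashed line is the threshold of 20. H3K4me3 stands out at KRT7, KRT18, KRT8 and KRT19 inside the clusters, and H3K27me3 above 20 is seen only in flanking genes.

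CpG content differed between the same groups. The CpG observed/expected ratio, computed over 500 bases on each side of the start, was 0.713 at KRT18, 0.752 at KRT19 and 0.713 at KRT7, and 0.228 at the KRT8 start. The median was 0.261 over 49 other keratins and 0.187 over 90 KRTAP genes, against 0.705 over all 18240 promoters with a sequence. Of the 139 other keratin and KRTAP promoters with a ratio, 128 (92.1%) were at or below 0.4, where 27.7% of all promoters were.

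Promoters of low CpG ratio rarely exceeded 20 for H3K4me3 anywhere in the genome. Of the 5057 promoters at or below 0.4, 10.9% did so in −Dox cells, while of the 3585 between 0.7 and 0.8, the range of KRT7, KRT18 and KRT19, 91.0% did. The other keratin and KRTAP promoters above 0.4 numbered 11, and 0 of them exceeded 20. Of these, 8 lay between 0.4 and 0.5, where 38.1% of 759 promoters exceeded 20. Another 2 lay between 0.5 and 0.6, where 59.7% of 1052 did. KRT72, an inner root sheath keratin, had the highest ratio among the 11, 0.611, with H3K4me3 of 4.27 units in −Dox and 10.8 in +Dox. In the same range, 0.6 to 0.7, 81.9% of 2105 promoters exceeded 20. These relations describe promoters and were not tested.

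**Figure D4:**
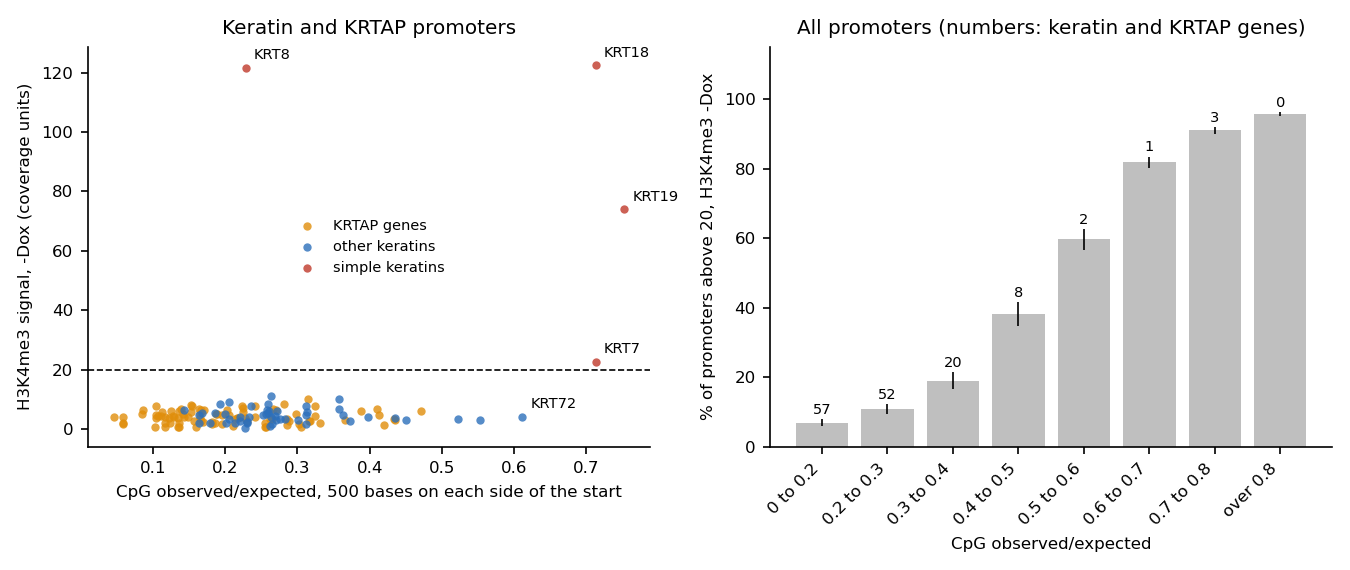
Left, H3K4me3 signal in −Dox cells in coverage units against the CpG observed/expected ratio for 143 keratin and KRTAP promoters, with the threshold of 20 dashed. Right, percent of all promoters above 20 for H3K4me3 in −Dox cells by CpG ratio, with 95% Wilson intervals and, above each bar, the number of keratin and KRTAP promoters in that range. KRT7, KRT18 and KRT19 lie in the range in which 91.0% of promoters exceed 20, and most other members in ranges in which few do.

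The letters TATAAA were more frequent in other keratins and KRTAP genes than over all promoters. On the strand of the gene, from 250 bases before to 50 after the start in GRCh37, they occurred in 0 of 4 simple keratins, 23 of 49 other keratins (46.9%) and 66 of 90 KRTAP genes (73.3%), against 7.06% of all promoters. On either strand, where TTTATA was searched as well, the shares were 0 of 4, 51.0%, 76.7% and 9.97%. Between 45 and 15 bases before the start they occurred in 36.7% of other keratins and 43.3% of KRTAP genes, against 3.19% of all promoters. No match says only that these letters were not found in the window. Among the simple keratins, KRT8 was searched 44766 bases from its canonical start and KRT18 247 bases from its own. The 0 of 4 therefore does not describe 4 canonical promoters.

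Promoters of genes that work with keratins were counted in the same way and are read beside all promoters, of which 63.7% in −Dox and 62.7% in +Dox exceeded 20 for H3K4me3 and 11.0% and 6.73% for H3K27me3. Of 17 desmosome and linker genes, which anchor keratin filaments at cell contacts, 9 exceeded 20 for H3K4me3 in −Dox cells and 8 in +Dox, and 1 and 2 exceeded 20 for H3K27me3. Whether this list differs from all promoters was not tested, and it holds few genes. The measured starts of PPL and PLEC lay 23593 and 37137 bases from their canonical starts, and no such distance was available for JUP and DST. DSP, which encodes the desmoplakin that binds keratin filaments, had 131.1 units of H3K4me3 in −Dox and 133.1 in +Dox. The desmosomal cadherin genes DSG2 and DSC2 had 66.1 and 94.9 units in −Dox. DSC3, a cadherin of stratified epithelia, was bivalent, and its H3K27me3 was 108.8 units in −Dox and 51.1 in +Dox, a ratio of 0.470 (0.312 to 0.688).

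Of 36 cornified envelope genes, which act with keratins in the outer epidermis, 1 exceeded 20 for H3K4me3 in each condition, and 2 in −Dox and 4 in +Dox exceeded 20 for H3K27me3. Few of them thus exceeded 20 for H3K4me3, as among the keratins and KRTAPs. LOR (loricrin) was the bivalent one, with 71.5 units of H3K27me3 in −Dox and 45.9 in +Dox. TCHH, which encodes the trichohyalin of the inner root sheath, had 182.9 and 131.2 units. Other members of this list were higher in +Dox, and others, such as SPRR2G with 7.99 and 3.36 units, were lower. The higher ones named next were picked after their values were seen. FLG2, a filaggrin relative, had 6.09 units in −Dox and 20.5 in +Dox, and LCE5A, a late cornified envelope gene, had 9.51 and 22.7. The intervals on their ratios were wide, 1.10 to 10.95 for FLG2 and 1.005 to 7.14 for LCE5A. LCE1E stood at 4.56 and 19.8 units, and LCE3A was listed at 0 and at 17.2. Over the list the median H3K27me3 was 6.85 units in −Dox and 10.3 in +Dox, and the ratio of sums was 1.10.

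Of 14 epithelial and hair transcription factor genes, 8 in −Dox and 7 in +Dox exceeded 20 for H3K4me3, and 4 and 3 exceeded 20 for H3K27me3. H3K27me3 at HOXC13 was 207.7 units in −Dox and 205.4 in +Dox, and at TFAP2A 193.2 and 187.2. KLF4 had 51.0 and 24.2 units of H3K27me3, and TFAP2C had 21.7 and 12.3. Epithelial regulators stood on both sides of the threshold for H3K4me3. GRHL2, OVOL2, OVOL1 and GRHL3 had 110.3, 122.2, 61.3 and 24.2 units of H3K4me3 in −Dox, while GRHL1, EHF, KLF5 and TP63 had 4.84, 5.13, 4.56 and 3.71. The measured starts of GRHL1 and KLF5 lay 9472 and 4029 bases from their canonical starts, which were thus outside the windows. Of 14 intermediate filament genes outside the keratin family, 9 exceeded 20 for H3K4me3 in both conditions, and 5 in −Dox and 3 in +Dox for H3K27me3, so for H3K4me3 this list and the transcription factors were near the share of all promoters. Among these filament genes, VIM, the vimentin gene of mesenchymal cells, had 31.6 units of H3K27me3 in −Dox and 10.8 in +Dox. Its H3K4me3 was 74.9 and 77.2. Of the others above 20 for H3K27me3 in −Dox cells, NEFH (97.7 and 62.6) and NEFM (24.0 and 14.5) were also lower in +Dox. INA (33.85 and 48.1) and PRPH (67.7 and 73.1) were higher.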

How the data were processed

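The 4 ChIP-seq libraries were sequenced by the authors as 150-base single-end reads on a MiSeq, mapped to hg19 with Bowtie2 without mitochondrial reads, and summarised with ngs.plot. The submitters' processing notes also name CASAVA 1.4. The aligner version is not given in the sources used here. The deposited values are signal, the coverage from 3 kb before to 3 kb after the start of 1 transcript per gene, scaled to library reads. The study's methods also name a normalisation to the density after transcription ends, but not whether these values received it. Input libraries were not analysed here.

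All values (100%) were whole multiples of a step in each file, which gave about 2629351, 2682085, 3509244 and 2682085 reads for H3K27me3 −Dox, H3K27me3 +Dox, H3K4me3 −Dox and H3K4me3 +Dox. With 3.40 steps per read these steps gave approximate reads per window for 95% Clopper-Pearson intervals, which cover counting error only. Reads carried no molecular identifiers and may repeat molecules. The H3K27me3 +Dox and H3K4me3 +Dox files gave the same number of reads. Whether each was scaled to the depth of its own library was not tested. If either was not, all +Dox/−Dox ratios of its mark would shift by a constant factor. The interval calculation was run on data simulated with the same counting error that it assumes. That run cannot check repeated molecules, spread between libraries or windows with as few reads as most members had. Positions came from matching transcripts to GENCODE 44 on GRCh37 (18244 matched, 90.1%, including 143 of 148 members). Promoter sequences came from RefSeq, which held 112 members. Starts of 7 members lay over 500 bases from the canonical start, and 37 windows overlapped another member's.

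The members and lists were chosen with earlier results of these data known. Genes named were the simple keratins, a fixed list of 8 other keratins, the 10 other keratins and 5 KRTAP genes with the highest mean of each mark and members that changed class. Others named were chosen after their values were seen. Alternatives were other thresholds, scalings, pseudocounts, filters and rows. Python 3.11.15, pandas 2.3.3, numpy 2.4.6 and scipy 1.17.1 were used.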

Additional observations from a re-analysis of the deposited data

How the results depend on the processing

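Of 228 alternative values over 40 results, 210 stayed within set bounds and 18 did not. Counts were bounded by 1.5 times the main count, and ratios of sums and single ratios by their counting interval. Medians and median log2 ratios were bounded by a range over members, which is not a replicate error. For the 4 simple keratins this range ran from the lowest to the highest member. Their median H3K4me3 in −Dox cells, 97.9 units, was 48.4 without overlapping windows and still counted as within. At a class threshold of 10 in place of 20, 1 simple keratin in −Dox and 2 in +Dox exceeded the threshold for H3K27me3. At that threshold 7 other keratins in −Dox and 3 in +Dox exceeded it for H3K27me3, and 3 and 6 for H3K4me3. For KRTAP genes the numbers were 3 and 8 for H3K27me3 and 1 and 2 for H3K4me3. A threshold of 30 gave the counts of 20 within 1.5 times. Scaling to the same total raised +Dox values by 1.18 times for H3K27me3 and 1.03 times for H3K4me3. It gave a median log2 H3K27me3 ratio of 0.60 for simple keratins, a median H3K27me3 of 5.70 units in +Dox for other keratins, and a ratio of sums of 1.19 for H3K27me3 at KRTAP genes. Without members whose windows overlap, 2 simple keratins in −Dox and 1 in +Dox exceeded 20 for H3K4me3, with a ratio of sums of 0.758, because KRT8 and KRT18 leave the count. With a mean of at least 10, H3K4me3 at KRTAP genes had a ratio of sums of 1.35 and a median log2 ratio of 0.44, and fewer genes remained. Counting KRT8 and KRT18 as 1 region and keeping only starts near the canonical one were chosen after seeing the data, and moved no value beyond these bounds.

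No paired analysis was possible because the groups hold a single library each, and leaving out a library was not possible either. Members other than the simple keratins had about 4 reads per window, so single ratios there are not informative of a change, and values below 20 do not show that a mark is absent.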
